A study of Equus caballus with 6 samples.

Results

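Testis RNA was sequenced from 6 Mongolian horses to compare the organ before and after sexual maturation, and 958 transcribed loci that lie outside the Ensembl gene set but were expressed at both stages are described here. They carry numbered identifiers (Novel00001 onwards) which came with the assembly of additional transcripts by Cufflinks, and are called assembled loci. The members were chosen by their measured level: an assembled locus was taken when it had 5 or more CPM (counts scaled to a common library total) in each of the 6 libraries. That left 958 of the 31733 assembled loci, or 3.02%, in a table of 58724 loci and genes. Of the 26991 Ensembl genes, 9268 met the same condition, and these serve as the comparison. The rule used the level in every library, so levels are given as a description, and a locus that is nearly silent at one stage is outside the set by construction.

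The immature group (BSM, before sexual maturation) was 3 colts, 11 to 13 months old, and the mature group (ASM, after sexual maturation) was 3 stallions, 3 to 4 years old. All 6 were healthy males of one breed that were gelded, with no treatment, and each gave 1 poly(A) library from testis. The ASM columns are not tied to single animals in the labels, and the names ASM1 to ASM3 follow the column numbers. Library totals ran from 14015484 to 19721986 counts, so that 5 CPM stood for between 70.1 and 98.6 counts, and 3 counts stood for between 0.152 and 0.214 CPM. No pair of libraries was a near-duplicate, the lowest chi-square per degree of freedom for a pair being 13.2.

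Spermatogenesis turns spermatogonia into spermatocytes, by meiosis into haploid spermatids, and finally into sperm, inside tubules formed by Sertoli cells with Leydig cells between them. An immature testis is rich in Sertoli cells and early germ cells, whereas a mature testis is dominated by meiotic and haploid germ cells. The testis is known for transcribing an unusually large part of the genome, and transcripts found outside a gene set can be long noncoding RNAs, missed coding genes, or extended ends and fragments of known genes. What any single member encodes was not analysed here, nor were positions or sequences, and the labelled tissue was not checked by marker genes because identifiers were not paired with symbols. In whole tissue, fewer cells of a type and less RNA per cell cannot be told apart.

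The share of all counts that fell on the members was 5.38%, 5.57% and 5.81% in the libraries BSM1 to BSM3, and 3.62%, 3.85% and 3.93% in ASM1 to ASM3. Every ASM library lay below every BSM library. The BSM libraries averaged 5.59% ± 0.217 (SD, n = 3), and the ASM libraries averaged 3.80% ± 0.163 (SD, n = 3). The other 30775 assembled loci went the opposite way. They held 4.33% ± 0.259 (SD, n = 3) of the counts before maturation and 7.57% ± 0.244 (SD, n = 3) after it. The rule bears on this contrast, since a locus nearly silent at one stage is counted with the other loci, however high elsewhere. Throughout the colts 1958 assembled loci had 5 CPM or more, and throughout the stallions 2936 had. A fall in share was not particular to the members. Ensembl genes under the same rule held between 84.1% and 85.8% of the counts in each colt, and between 78.6% and 79.3% in each stallion. Expressed as a share of all counts on assembled loci, the members held 56.3% ± 0.557 (SD, n = 3) in the colts, so that this small set carried most of the unannotated signal there. In the stallions they held 33.4% ± 0.738 (SD, n = 3). The 10 members with the most counts held between 14.1% and 15.6% of the members' counts in the BSM libraries and a smaller part, from 11.4% upwards, in each ASM library.

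A typical member was moderately expressed. Its mean level over the 6 libraries had a median of 25.5 CPM, with quartiles of 14.7 and 49.4 CPM and a range from 6.16 to 1149 CPM. By library the median was between 24.0 and 29.1 CPM in BSM and between 15.9 and 17.9 CPM in ASM. Ensembl genes under the same rule had library medians between 41.6 and 46.1 CPM in BSM and between 34.7 and 35.2 CPM in ASM. A mean of 100 CPM or more was reached by 91 members, and 87 had a mean under 10 CPM. Per length, on the FPKM scale (the count divided by the length of the locus and by the library total), the median of the members' means was 9.19, with quartiles of 4.11 and 21.7, and 51 members had a mean of 100 FPKM or more. Only 38 members were at 100 or more on both scales. The levels of the members in BSM and ASM were loosely related, with a Spearman rho of 0.39 across the 958 loci on log2 CPM, against 0.51 across the 9268 Ensembl genes. These coefficients are across loci measured in the same libraries and are descriptions.

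**Figure D1:**
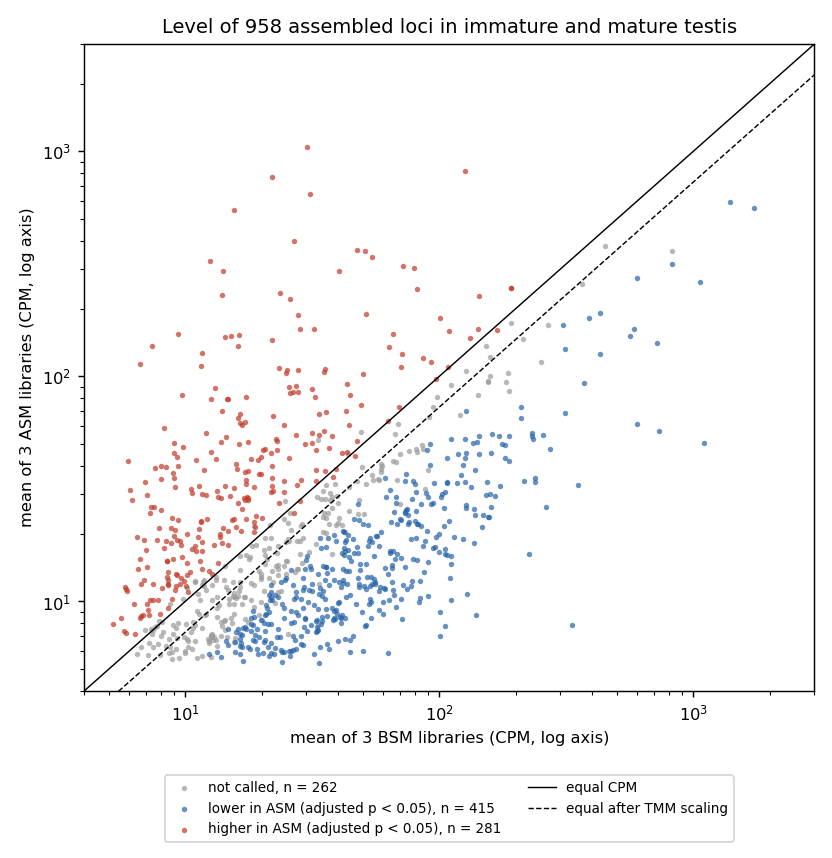
Mean level of each of the 958 members in the 3 BSM libraries (x axis, CPM, log scale) and in the 3 ASM libraries (y axis, CPM, log scale), with 281 loci that were higher in ASM, 415 that were lower and 262 that were not called. The solid line marks equal CPM and the dashed line marks equality after TMM scaling, which is 1.37-fold away; points end near 5 CPM on both axes because the rule asks for it.

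Per length, Novel26508 was the most abundant member. This locus of 593 bp had 2329, 1363 and 1514 CPM in BSM1, BSM2 and BSM3 and 562, 607 and 519 CPM in ASM1, ASM2 and ASM3, and a mean of 1937 FPKM. It also collected the most counts, and its stages did not overlap. Novel17271, of 245 bp, followed with a mean of 1264 FPKM, from 555, 320.0 and 409 CPM in BSM and 197, 197 and 179 CPM in ASM. Novel10384, of 576 bp, had a mean of 1029 FPKM but varied widely between the colts, with 379, 1401 and 697 CPM against 295, 431 and 354 CPM in the stallions. Its stages overlapped. Novel30786, of 524 bp, was even in both groups, with 588, 688 and 527 CPM in BSM, 262, 296 and 266 CPM in ASM, and a mean of 835 FPKM. All 4 of these loci are short, under 600 bp, and in each of them the BSM mean was above the ASM mean.

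By raw counts, before length is taken into account, 4 longer loci joined Novel26508 and Novel10384 at the top. Novel00846, of 2313 bp, had 1656, 1202 and 1319 CPM in BSM and 533, 580.4 and 678 CPM in ASM. Novel00831, of 6349 bp, had 1240.0, 990.3 and 955 CPM in BSM and 202, 286 and 303 CPM in ASM. Novel08429, of 3076 bp, stayed close between animals, with 801, 749 and 924 CPM in BSM and 306, 315 and 329 CPM in ASM. Each of these 3 loci separated the stages completely. Novel24950, of 4294 bp, rested on one colt for much of its level, with 652, 501 and 2157 CPM in BSM and 66.7, 56.4 and 28.4 CPM in ASM.

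To ask which members differed between the stages, ASM was compared with BSM on the counts of the whole table by edgeR's quasi-likelihood test with TMM scaling (a correction for composition between libraries), with Benjamini-Hochberg adjustment of the p-values over all 32954 loci and genes tested. All 958 members passed the low-count filter of that test. With an adjusted p under 0.05, 281 members were higher in ASM and 415 were lower. They made up 29.3% and 43.3% of the members, where 41.4% of all loci and genes tested were called higher and 36.0% lower. In either direction 696 members were called, which is 72.7% of them, against 77.4% of everything tested. The 3 ASM libraries lay entirely above or below the 3 BSM libraries, in TMM-scaled CPM, for 732 members or 76.4%, against 81.3% of everything tested. The shares over everything tested include loci that are nearly silent at one stage, which the rule leaves out of the members, so the shares are not read as a difference.

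Among Ensembl genes held to the same rule, 3510 were higher in ASM and 3405 were lower with TMM scaling, whereas 59.6% of the members that were called were lower. The median log2 fold change was -0.35 for the members, -0.03 for these Ensembl genes and 0.06 over everything tested. TMM scaling matters here, since equal CPM at both stages corresponded to a log2 fold change of 0.46. With library size as the only scaling, the median over everything tested moved to -0.40, and 199 members were higher and 538 were lower, beside 2580 and 4696 Ensembl genes. With DESeq2 size factors it moved to 0.18, and 303 members were higher and 372 were lower, beside 3796 and 3059 Ensembl genes. Of these 3 scalings, the near-equal numbers of higher and lower Ensembl genes were found with TMM alone. The members' median minus that of the Ensembl genes was -0.33 under each of these 3 scalings, which shift all loci by nearly the same amount and so leave this difference in place by construction. It was -0.20 with limma on log2(FPKM + 1), which called 191 members higher and 506 lower. Of the calls made with TMM, 199 of the 281 higher ones and 372 of the 415 lower ones were also made under the other 2 scalings.

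The size of this gap depended on how members were picked. With 10 CPM asked for in every library, the median was -0.35 over 512 assembled loci and 0.09 for Ensembl genes, and with 5 CPM on TMM library sizes it was -0.50 over 998 assembled loci and -0.09 for Ensembl genes, so that the gap was wider. With 3 CPM the medians were -0.34 and -0.08. When a locus was asked for 5 CPM as the mean of each stage, the median was -0.18 over 1281 assembled loci and close to 0 for Ensembl genes. When it was asked for 1 FPKM in every library, the median was -0.14 over 2178 assembled loci and -0.13 for Ensembl genes, so that the gap closed. Lower calls outnumbered higher calls under the last 2 rules as well, with 486 against 432 and 764 against 700.

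**Figure D2:**
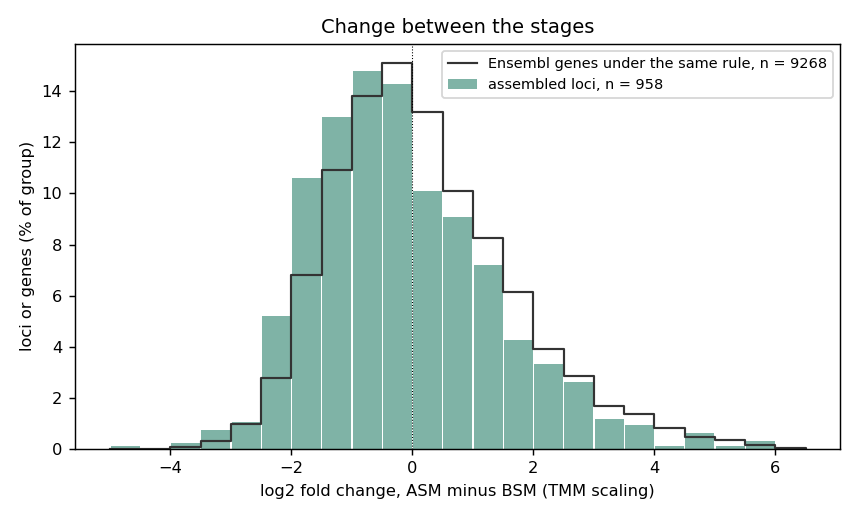
Distribution of the log2 fold change (x axis, ASM minus BSM, TMM scaling, bins of 0.5) for the 958 members (bars) and the 9268 Ensembl genes under the same rule (line), in percent of each group (y axis). The bars stand above the line between -2.5 and -0.5 and below it between 0 and 2.

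Large changes were present in both directions. A rise of at least 2-fold, a log2 fold change of 1, was called for 197 members, and 88 of these rose by at least 4-fold and 31 by at least 8-fold. A fall of at least 2-fold was called for 294 members, with 70 at 4-fold or more and 10 at 8-fold or more. A log2 fold change of 4 or more was called for 11 members, and one of -4 or less for 1. Among the 9268 Ensembl genes under the same rule, 2403 rose and 2007 fell by at least 2-fold, and 163 and 1 passed a log2 fold change of 4 in either direction. Over the 32954 loci and genes tested, these numbers were 12347 and 10063 at 2-fold and 5812 and 721 at a log2 fold change of 4, so that more rises than falls among the steepest changes were not particular to the members. Over everything tested 9819 rose and 5129 fell by at least 4-fold, and 7762 and 1942 by at least 8-fold. For the Ensembl genes these numbers were 1070 and 381, and 444 and 36. The called changes of members under 2-fold were 84 rises and 121 falls, the remainder of the 281 and 415 called. Calls of any size over everything tested were 13644 rises and 11871 falls.

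The largest rise was that of Novel26422, a locus of 1934 bp. It had 5.31, 23.8 and 17.4 CPM in BSM1, BSM2 and BSM3, and 462, 637 and 551 CPM in ASM1, ASM2 and ASM3. The stages were far apart, and the log2 fold change was 5.63 (SE 0.51; edgeR adjusted p = 5.76e-05). Novel14233, of 802 bp, went from 6.46, 36.1 and 23.4 CPM to 712, 813 and 777 CPM, with a log2 fold change of 5.61 (SE 0.57; edgeR adjusted p = 9.17e-05). Novel08467, of 3193 bp, had 9.59, 51.6 and 29.5 CPM in BSM and 925, 1126 and 1082 CPM in ASM, with a log2 fold change of 5.59 (SE 0.56; edgeR adjusted p = 9.08e-05). It was the member with the highest count in stallions. In all 3 loci the stallions lay close to each other and the colts differed several-fold, BSM1 being the lowest.

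The next 3 loci had the same shape. Novel08061, of 642 bp, had 6.14, 18.0 and 13.3 CPM in BSM and 323, 344 and 311 CPM in ASM, with a log2 fold change of 5.18 (SE 0.36; edgeR adjusted p = 2.07e-05). Novel25580, of 1937 bp, had 12.1, 46.2 and 34.7 CPM in BSM and 564, 729.7 and 644 CPM in ASM, with a log2 fold change of 4.86 (SE 0.45; edgeR adjusted p = 6.29e-05). Novel23979, of 831 bp, had 6.27, 22.4 and 13.6 CPM in BSM and 287, 312 and 279.6 CPM in ASM, with the same log2 fold change of 4.86 (SE 0.41; edgeR adjusted p = 4.5e-05). In each of the 6 loci BSM1 was lowest and BSM2 was highest among the colts. Leaving out BSM1 brought the fold of Novel14233 down by over 1.5 times, to a log2 fold change of 5.01, and leaving out BSM2 raised that of Novel08467 to 6.21.

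This order of the colts was common among the loci that rose most. Of the 88 members with a rise of at least 4-fold, BSM1 was the lowest colt in 73, and in 49 of these 88 (55.7%) it was the lowest while BSM2 was the highest. For Ensembl genes with the same rule and size of rise, that order was found in 746 of 1070, or 69.7%. Among the 70 members that fell by at least 4-fold it was found in 11 (15.7%), and among the 262 members that were not called in 72 (27.5%). With TMM-scaled CPM the count for the 88 rising members was 47. Members called higher numbered 244 without BSM1, 273 without BSM2 and 223 without BSM3.

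**Figure D3:**
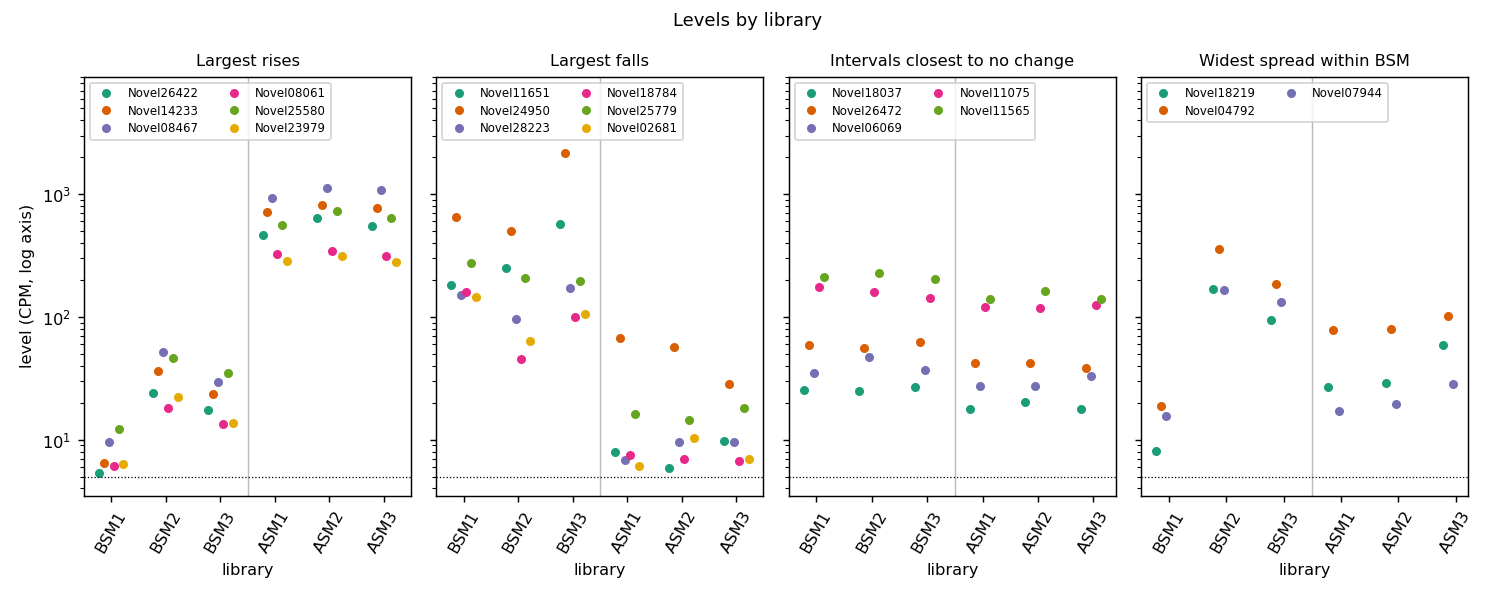
Level of single members in each of the 6 libraries (y axis, CPM, log scale; x axis, library) for the 6 largest rises, the 6 largest falls, the 5 loci whose 95% intervals stayed closest to no change and the 3 with the widest spread within BSM. Each point is 1 library, and the dotted line marks 5 CPM; in the first panel BSM1 is the lowest library for every locus.

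The largest fall was that of Novel11651, a locus of 3799 bp. It had 181, 252 and 568 CPM in BSM and 7.91, 5.88 and 9.71 CPM in ASM, with a log2 fold change of -4.94 (SE 0.45; edgeR adjusted p = 5.85e-05). Novel24950, described above, had a log2 fold change of -3.97 (SE 0.62; edgeR adjusted p = 0.000669), which became -3.20 without BSM3, the colt with 2157 CPM. Novel28223, of 9779 bp, had 151, 96.5 and 172 CPM in BSM and 6.77, 9.63 and 9.60 CPM in ASM, with a log2 fold change of -3.56 (SE 0.27; edgeR adjusted p = 2.8e-05). The stages were well apart in these 3 loci, even where the colts disagreed.

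Novel18784, of 1497 bp, had 159, 45.3 and 100.4 CPM in BSM against a tight 7.44, 6.95 and 6.75 CPM in ASM, with a log2 fold change of -3.42 (SE 0.46; edgeR adjusted p = 0.00032). Novel25779, of 12743 bp, was the most even among the colts, with 273, 206 and 198 CPM in BSM and 16.2, 14.4 and 18.2 CPM in ASM, and a log2 fold change of -3.35 (SE 0.21; edgeR adjusted p = 1.49e-05). Novel02681, of 2490 bp, had 144, 64.2 and 105 CPM in BSM and 6.05, 10.4 and 6.92 CPM in ASM, with a log2 fold change of -3.31 (SE 0.37; edgeR adjusted p = 0.000144). The order of the colts was not shared by the falling loci: the highest colt was BSM3 in 3 of the 6 and BSM1 in the other 3. All of them came close to the 5 CPM limit in at least 1 stallion except Novel24950 and Novel25779, and a locus that fell below it there would not be a member.

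Of the loci with the most counts or the highest FPKM described first, Novel24950 had the second largest fall, given above, and the others had smaller differences. Novel26508 fell by 1.19 on the log2 scale (SE 0.25; edgeR adjusted p = 0.00318), Novel00846 by 0.78 (SE 0.19; adjusted p = 0.00661 from the same edgeR test) and Novel00831 by 1.57 (SE 0.21; edgeR adjusted p = 0.000338). Novel08429 fell by 0.93 (SE 0.14; edgeR adjusted p = 0.000479) and Novel30786 by 0.68 (SE 0.15; edgeR adjusted p = 0.00393). Novel17271 fell by 0.72 (SE 0.23; edgeR adjusted p = 0.0215). That call was lost without ASM1, ASM2 or ASM3 (edgeR adjusted p between 0.0795 and 0.124) and with DESeq2 (-0.56). Without these libraries its log2 fold changes were -0.66, -0.64 and -0.54. Novel10384 did not pass, with a log2 fold change of -0.72 and a 95% interval from -1.66 to 0.21 (edgeR adjusted p = 0.133). Without BSM1 its log2 fold change was -1.22, and it passed (edgeR adjusted p = 0.00636). Without BSM2 the log2 fold change was -0.13, with no call, and with library size as the only scaling it was -1.20 and called.

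The calls were counted by level as well. Of the 87 members with a mean under 10 CPM, 25 were higher and 3 were lower, but the rule and the scaling bear on this count: with every library at 5 CPM or more such a locus can differ little in CPM between the stages, and equal CPM is a log2 fold change of 0.46 under TMM. The 379 members from 10 to below 25 CPM held 108 higher and 153 lower ones. The 257 from 25 to below 50 CPM held 76 and 132. Of the 144 members between 50 and 100 CPM, 40 were higher and 86 were lower (27.8% and 59.7%). Of the 91 with 100 CPM or more, 32 were higher and 41 were lower (35.2% and 45.1%). Among all Ensembl genes under the same rule, 37.9% were higher and 36.7% lower. They were not split by level, so these counts are not read as a trait of the members. The median absolute log2 fold change was 0.45 in the lowest class, 1.53 between 50 and 100 CPM and 1.41 in the highest.

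The 95% intervals held a minority of the members to a similar level in both stages. For 220 members (23.0%) the whole 95% interval of the fold change lay within 2-fold in either direction, and for 53 (5.53%) within 1.5-fold. The shares for Ensembl genes under the same rule were 32.3% and 10.6%. An interval also widens with the spread between horses, which was larger for the members. The median SD of log2 CPM in BSM was 0.24 for them and 0.18 for the Ensembl genes. Of the 262 members that were not called, 178 had such an interval within 2-fold, and for the other 84 the interval reached past 2-fold, so that a change of that size was not excluded. Under all 3 scalings, 95 members had their interval within 2-fold.

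Ranked by the limit of the 95% interval that lay farther from no change, the 5 members closest to no change were Novel18037, Novel26472, Novel06069, Novel11075 and Novel11565. Novel18037, of 6102 bp, had 25.2, 25.1 and 26.8 CPM in BSM and 17.8, 20.2 and 17.9 CPM in ASM, and a log2 fold change of -0.01 (95% interval -0.35 to 0.33). Novel11075, of 739 bp, had 175, 161 and 142 CPM in BSM and 119.8, 119 and 126 CPM in ASM, and a log2 fold change of 0.06 (95% interval -0.28 to 0.39). Their CPM was lower in ASM, by about the amount that TMM scaling takes away. The intervals of the other 3 lay between -0.39 and 0.38. With library size as the only scaling all 5 were called lower, with log2 fold changes between -0.54 and -0.39, so that their evenness holds for TMM scaling and not for CPM. With limma on FPKM, Novel26472 (-0.52), Novel11075 (-0.38) and Novel11565 (-0.54) were called lower.

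Within a stage, the colts differed more than the stallions. The SD of log2 CPM over 3 libraries had a median of 0.24 across members in BSM, with quartiles of 0.15 and 0.42, and a median of 0.18 in ASM, with quartiles of 0.11 and 0.28. BSM was the wider stage for 600 members, or 62.6%, and for 63.4% of the Ensembl genes, whose medians were 0.18 and 0.13. Counting alone would give a median SD of 0.07 in BSM and 0.08 in ASM at these counts, and more than 2 times the counting SD was found for 713 members in BSM and for 568 in ASM. An SD of 1 or more was found for 43 members in BSM and for 1 in ASM. The SDs of the 2 stages were weakly related, with a Spearman rho of 0.16 across members.

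**Figure D4:**
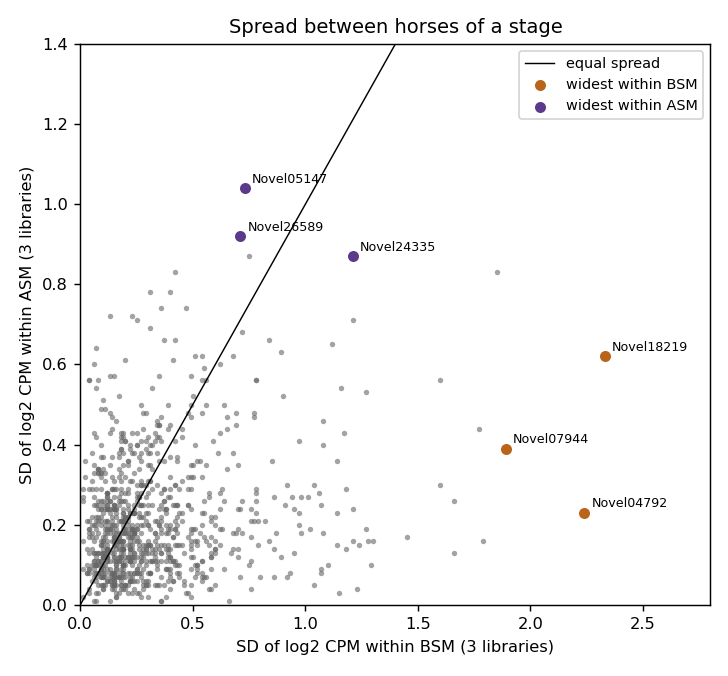
SD of log2 CPM over the 3 BSM libraries (x axis) and over the 3 ASM libraries (y axis) for the 958 members; the line marks equal spread and the coloured, named points are the 3 widest loci of each stage. More loci lie on the BSM side, 600 of 958, and the widest BSM loci reach 2.33 where the widest ASM locus reaches 1.04.

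The 3 loci with the widest spread in BSM were all low in BSM1 and high in BSM2. Novel18219, of 7103 bp, had 8.06, 169 and 95.0 CPM in BSM and 27.0, 29.0 and 58.9 CPM in ASM. Novel04792, of 14774 bp, had 18.7, 359.5 and 186 CPM in BSM and 77.5, 79.0 and 102 CPM in ASM. In both loci the stallions lay between BSM1 and the other 2 colts. No call was made for either of them (log2 fold change -0.76, edgeR adjusted p = 0.418, and -0.63, edgeR adjusted p = 0.469), but without BSM1 both were lower in ASM (-1.47, edgeR adjusted p = 0.00708, and -1.34, edgeR adjusted p = 0.00286). Without BSM2 the log2 fold changes were 0.05 and 0.24, with no call, so that single colts decided the values of both loci. Novel07944, of 5407 bp, had 15.5, 165 and 133 CPM in BSM and 17.1, 19.5 and 28.6 CPM in ASM. Its stages overlapped, and its fall was 1.78 on the log2 scale (SE 0.68; edgeR adjusted p = 0.0424). The call was lost when any library other than BSM1 was left out, with edgeR adjusted p-values between 0.0854 and 0.144. The log2 fold change was then -1.29 without BSM2, -1.78 without BSM3, and -1.55, -1.61 and -1.89 without ASM1, ASM2 and ASM3. Without BSM1 the log2 fold change was -2.45. The call was also lost with DESeq2 size factors (-1.67), a minimum of 10 counts per library (-1.69), limma on FPKM (-1.57) and the replicate block (-1.33).

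The 3 loci with the widest spread in ASM were each lowest in a different stallion. Novel05147, of 4049 bp, had 58.8, 22.1 and 90.7 CPM in ASM and 741, 391 and 1059.5 CPM in BSM, so that it was high in every colt and its fall of 3.23 (SE 0.55; edgeR adjusted p = 0.00104) stood well outside this spread. Novel26589, of 7307 bp, had 6.00, 10.8 and 21.3 CPM in ASM and 28.1, 40.4 and 74.5 CPM in BSM, with a fall of 1.45 (SE 0.48; edgeR adjusted p = 0.0239). That call was lost without BSM3, ASM1 or ASM2 (edgeR adjusted p = 0.0765, 0.0837 and 0.0989). Novel24335, of 8341 bp, had 61.5, 71.6 and 23.4 CPM in ASM and 10.4, 44.6 and 45.0 CPM in BSM, and was not called (log2 fold change 1.14, edgeR adjusted p = 0.0973). It passed without ASM3, with a log2 fold change of 1.62 (edgeR adjusted p = 0.0315), and with DESeq2 (1.30).

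The length of each locus is implied by its count, its FPKM and the library total. It came out as a whole number of bases, to within 0.001 bp, and the same in all libraries. The median of the members was 3069 bp, with quartiles of 1570 and 5368 bp and a range from 186 to 22308 bp. Other assembled loci had a median of 1142 bp, and Ensembl genes under the same rule had a median of 1627 bp. Loci of 5000 bp or more were 28.4% of the members, 2.69% of the other assembled loci and 5.54% of the Ensembl genes. A rule on counts takes in long loci more readily than one on FPKM: 86 members, with a median of 9114 bp, had under 1 FPKM in some library, and the 2178 assembled loci with 1 FPKM or more in every library had a median of 1292 bp.

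Length and direction of change went together weakly. The members that were higher in ASM had a median length of 2520 bp, those that were lower had 3404 bp and those not called had 3064 bp. Of the 33 members under 500 bp, 12 were higher (36.4%) and 11 were lower (33.3%), with a median log2 fold change of 0.26. Ensembl genes of that length under the same rule were 36.9% higher and 33.3% lower, with a median of -0.01. In the classes 500 to 1000, 1000 to 2000 and 2000 to 5000 bp, the members' medians were -0.31, -0.20 and -0.21. Those of the Ensembl genes were -0.03, 0.02 and -0.03. Of the 216 members from 5000 to below 10000 bp, 49 were higher (22.7%) and 113 were lower (52.3%), with a median of -0.65. Ensembl genes there were 31.7% higher and 44.4% lower, with a median of -0.23. Of the 56 members of 10000 bp or more, 8 were higher (14.3%) and 31 were lower (55.4%), with a median of -0.77. Ensembl genes there were 26.8% higher and 55.4% lower, with a median of -0.64, so that long loci of either kind leaned the same way. Across the 958 members the Spearman rho between length and log2 fold change was -0.15, against -0.02 across the Ensembl genes. Between length and mean CPM the rho was 0.01.

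**Figure D5:**
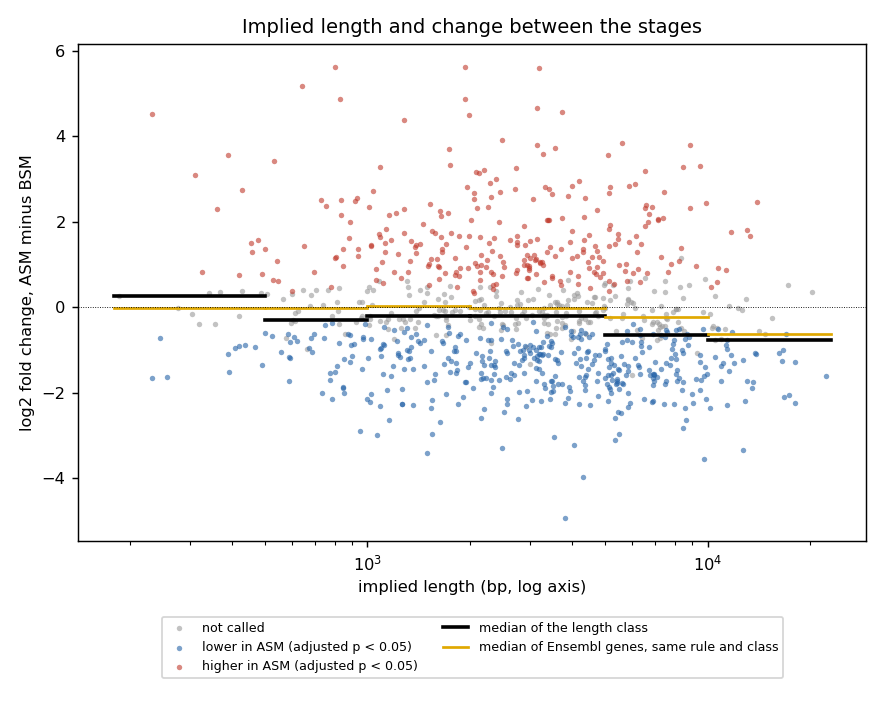
Implied length of each member (x axis, bp, log scale) and its log2 fold change (y axis, ASM minus BSM, TMM scaling), coloured by the call. Black bars give the median of the members in 6 length classes, from 0.26 under 500 bp to -0.77 at 10000 bp or more, and yellow bars give that of Ensembl genes in the same classes.

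At the long end, Novel24173, of 22308 bp, had 51.9, 55.9 and 53.4 CPM in BSM and between 11.2 and 14.4 CPM in ASM, and fell by 1.61 on the log2 scale (SE 0.15; edgeR adjusted p = 6.03e-05). Novel27974, of 18115 bp, had 83.8 CPM in BSM1, 103 CPM in BSM2 and a BSM mean of 87.1 CPM ± 14.1 (SD, n = 3) and 11.3, 13.8 and 15.5 CPM in ASM, and fell by 2.24 (SE 0.18; edgeR adjusted p = 3.68e-05). Both were even within each stage. Novel22348, of 20322 bp, differed from them, with 21.0, 17.7 and 23.5 CPM in BSM, 20.4, 16.7 and 20.7 CPM in ASM, and no call (log2 fold change 0.35, 95% interval -0.07 to 0.77). It was called higher with DESeq2 size factors (0.47), with a minimum of 10 counts per library (0.44) and with DESeq2 (0.51). At the short end, Novel23490, of 186 bp, had 7.74, 9.11 and 7.21 CPM in BSM and 7.18, 6.59 and 7.33 CPM in ASM, and was not called (log2 fold change 0.26, 95% interval -0.24 to 0.77). Novel05974, of 232 bp, had 6.59, 21.7 and 13.3 CPM in BSM and 263, 212 and 211 CPM in ASM, a rise of 4.52 on the log2 scale (SE 0.39; edgeR adjusted p = 4.91e-05). Novel00847, of 233 bp, had 36.8, 31.4 and 34.9 CPM in BSM and 6.36, 8.92 and 8.67 CPM in ASM, a fall of 1.66 (SE 0.20; edgeR adjusted p = 0.000183). The shortest loci thus included a strong rise, a fall and an even level.

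Members whose identifiers carry consecutive numbers tended to change alike. There were 74 such pairs, formed by 136 members. The Pearson r of their log2 fold changes was 0.50 across the 74 pairs, against 0.08 across 219 neighbouring members whose numbers lay 2 to 10 apart and 0.03 across 664 that lay more than 10 apart. Of 40 consecutive pairs in which both loci were called, 34 (85.0%) had the same direction, and this share was 60.9% and 52.4% for the wider gaps. Pairs share loci where 3 or more numbers follow each other, and the tables do not say whether consecutive numbers are neighbours in the genome or pieces of one transcript, so these values are a description.

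Novel00631, of 1989 bp, and Novel00632, of 3157 bp, were such a pair. The former had 6.65, 7.86 and 13.6 CPM in BSM and 168, 147 and 146 CPM in ASM, and the latter had 5.37, 6.79 and 10.1 CPM in BSM and 141, 132 and 138 CPM in ASM. Their log2 fold changes were 4.50 (SE 0.27) and 4.67 (SE 0.23), and in both BSM3 was the highest colt, unlike in the 6 largest rises. The next number, Novel00633, which forms a pair of equal rank with Novel00632, did not follow them and was not called, with a log2 fold change of -0.06. Novel28615 had 16.7, 34.4 and 34.0 CPM in BSM and 158, 159 and 169 CPM in ASM, and Novel28616 had 6.20, 51.5 and 38.7 CPM in BSM and 140.2, 149.8 and 196 CPM in ASM. Both were lowest in BSM1, and their log2 fold changes were 2.99 (SE 0.25) and 2.82 (SE 0.61), the latter moving to 2.17 without BSM1. Novel17523 had 159.8, 134 and 131 CPM in BSM and 134, 176 and 177 CPM in ASM, and Novel17524 had 152, 137 and 139.9 CPM in BSM and 215, 201 and 266 CPM in ASM. Here the changes were small, 0.64 (SE 0.17) and 1.12 (SE 0.15), and the call of Novel17523 was lost without BSM3 (edgeR adjusted p = 0.0758), with library size as the only scaling (0.20) and with limma on FPKM (0.19).

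The longest run of consecutive numbers among the members was Novel00846 to Novel00850, which was picked out after its values were seen. Not every run was of one direction: Novel07848 to Novel07850 had log2 fold changes of 0.39, -1.08 and 2.33, the first of them not called. All 5 loci from Novel00846 to Novel00850 fell, by 0.78, 1.66, 2.22, 2.36 and 2.26 on the log2 scale in the order of their numbers. Their levels differed far more than their direction, from the BSM mean of 1392 CPM in Novel00846 to 34.3 CPM in Novel00847, 63.7 CPM in Novel00848, 148 CPM in Novel00849 and 105 CPM in Novel00850.

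At the border of the rule, 151 members had a lowest value between 5 and 6 CPM, and 193 assembled loci outside the set had a lowest value between 4 and 5 CPM. Just inside, Novel21802 had 8.76, 9.93 and 7.85 CPM in BSM and 6.25, 5.43 and 5.00 CPM in ASM, and Novel23451 had 42.9, 30.2 and 27.8 CPM in BSM and 5.22, 5.78 and 5.00 CPM in ASM. Just outside, Novel10371 had 4.99, 5.28 and 5.78 CPM in BSM and 40.0, 13.4 and 16.0 CPM in ASM, and Novel04446 had 4.99, 9.74 and 10.9 CPM in BSM and 130.3, 80.6 and 134 CPM in ASM. The lowest library was a stallion for 632 members and a colt for 326. Without BSM1, the colt that was most often the lowest of its stage, 1113 assembled loci would meet the rule.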

How the data were processed

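Poly(A) RNA of testis from 3 immature and 3 mature Mongolian horses was sequenced in directional paired-end libraries. The authors aligned reads with TopHat (2.0.12) to the Ensembl horse genome, assembled further transcripts with Cufflinks (2.1.1) and counted reads per locus with HTSeq (0.6.1). The deposited counts are raw whole numbers. The deposited FPKM values were derived by the authors from the count and the gene length. The genome release, the strand setting and the handling of overlapping loci are not given in the sources used here, so counts of overlapping or antisense loci are uncertain.

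CPM was computed from column totals, and the length of a locus from its count, its FPKM and the column total. The table was tested with edgeR 4.0.16 (R 4.3.3; filterByExpr, TMM, quasi-likelihood F test, stage as the only term) with Benjamini-Hochberg adjustment over 32954 loci and genes. Fold changes are fitted coefficients, and their standard errors were derived from the F statistic. Alternatives used DESeq2 1.42.0, limma 3.58.1 on log2(FPKM + 1) for loci with a mean FPKM above 0.1, other scalings, filters and membership rules, and left out each library. On simulated data for the comparison of ASM with BSM (32879 loci), edgeR recovered 195 of 200 changed loci and called 6 unchanged ones. All 133 changed by 4-fold or more were recovered. Those 200 loci were changed in random directions, with the same dispersion set for all loci. In the data 77.4% of everything tested was called, so the simulation does not bear on TMM scaling where most loci change.

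The members and the rules for naming loci were chosen with earlier results of these data known. Named were the loci with the most counts or FPKM, the largest and smallest log2 fold changes among called loci without overlap, the 95% intervals whose farther limit was closest to no change, the widest SDs, the longest and shortest, those at the border and the 3 consecutive pairs whose lower locus had the highest mean CPM. P-values measure the spread between horses, 1 library each. A gene table of another assembly holds 39335 genes and 0 of the identifiers.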

Additional observations from a re-analysis of the deposited data

How the results depend on the processing

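The counts of members called higher (281) and lower (415) stayed within 1.5 times under each of the 7 other fits and each left-out library, and lower calls were the more numerous in all of them and under the 5 other membership rules. No member was called in opposite directions by the edgeR test and another fit. The median log2 fold change of -0.35 stayed negative, but moved by more than the SD between libraries: to -0.23 with DESeq2 size factors, -0.82 with library size only, -0.46 with no filter beyond 1 count, -0.26 with a minimum of 10 counts per library, -0.19 with DESeq2 and -0.63 with limma on FPKM. It ranged from -0.49 to -0.23 when each library was left out. The library number does not pair horses (correlations of same-numbered libraries between -0.0625 and 0.0243), and as a replicate block it gave 266 higher and 388 lower.

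With 3 CPM in place of 5, 425 members were higher. With 10 CPM there were 512 members, 149 higher and 231 lower. With TMM library sizes the median was -0.50. With 1 FPKM there were 2178 members, 700 higher and 764 lower, with a median of -0.14. With stage means of 5 CPM, 432 were higher and the median was -0.18. The cause was not tested. Of 598 values of named loci under another setting, 560 kept their side of the threshold and 19 no longer passed. Another 16 passed only there with the same sign, and 3 passed only there with the sign changed. These 3 were Novel06069 with library size only (-0.43), and Novel11075 with library size only (-0.39) and with limma (-0.38). Neither locus was called in the main fit, where the log2 fold changes were 0.02 and 0.06. Among the 560 were 29 that changed sign without a call on either side.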
